A study of Mus musculus with 4 samples.

Results

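The EphA receptor genes described here are the 8 mouse genes Epha1 to Epha8 (Epha10 is counted among the other Eph receptors below). They are described by the accessible chromatin in and around them in embryonic motor neurons. A region is a merged stretch covered by a deposited peak of at least 1 library, and its midpoint decided its gene: a protein-coding body around that point, or else the nearest body within 100 kb. By that rule 268 regions fell to the 8 genes, of 165822 regions given to any protein-coding gene and 199576 regions in all.

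The series holds 2 libraries from Hoxa5-deficient embryos and 2 from control littermates, called biological replicates. Each library holds cervical cells that were positive for the transgenic ChAT::GFP reporter, which marks cholinergic neurons, and were sorted as motor neurons at embryonic day 12.5; the reporter was used in mutants and controls alike. The labels give neither the Hoxa5 allele, nor the driver of any deletion, nor the number of embryos per library, so the spread within a genotype may be in part technical. Open DNA was tagged with the transposase Tn5 (ATAC-seq), and peaks were called in each library by itself.

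Eph receptors are receptor tyrosine kinases, and EphA receptors mostly bind the membrane-anchored ephrin-A ligands on neighbouring cells. Binding usually makes a growth cone turn away or collapse. In the spinal cord EphA4 on lateral motor column neurons steers their axons into the dorsal limb, and several EphA receptors take part in sorting motor and sensory axons.

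The lists held 127458 and 138248 intervals in the Hoxa5-deficient libraries and 115089 and 113505 in the controls. Depth was recovered from the lists as the lowest background pileup, the number of tags stacked over a base, which was 5.14 and 6.06 tags in the Hoxa5-deficient libraries and 5.43 and 4.39 tags in the controls. Both Hoxa5-deficient lists were longer than both control lists, although Hoxa5-deficient library 1 was shallower than control library 1. A region lay over the start of Hoxa5 in all 4 libraries, and the labels do not say which part of Hoxa5 is missing, so it checks nothing. Starts of motor neuron genes were covered in all 4 libraries for 7 of 8 markers (Chat was the exception, with no region over its start window in any library). The same held for 5 of 5 progenitor, 3 of 3 glial, 2 of 3 inhibitory interneuron and 1 of 2 dorsal root ganglion markers, so open starts do not by themselves set motor neurons apart. The V2a interneuron marker had a start region in 1 library, a control, and 0 of 2 blood markers had a region in any library. The part of other cells in the results below was not tested.

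All 8 EphA genes had a region over the transcription start in all 4 libraries. Across the genome 62.1% of protein-coding genes with a listed start did. The start window is the stretch from 250 bases before to 50 bases after the RefSeq start, and 4 of them are printed here in the direction of transcription. Epha1 and Epha2 are shown because their start regions ranked lower in the Hoxa5-deficient libraries, Epha7 because its start region was the strongest in the controls, and Epha5 because its window holds the homeodomain core. Capitals mark matches to TAATTA (homeodomain core) and GGGCGG (Sp factors) on either strand. The sequences are RefSeq's, for the assembly GRCm38.p6, with mm10 numbering.
Epha1, chr6:42373219-42373518, minus strand: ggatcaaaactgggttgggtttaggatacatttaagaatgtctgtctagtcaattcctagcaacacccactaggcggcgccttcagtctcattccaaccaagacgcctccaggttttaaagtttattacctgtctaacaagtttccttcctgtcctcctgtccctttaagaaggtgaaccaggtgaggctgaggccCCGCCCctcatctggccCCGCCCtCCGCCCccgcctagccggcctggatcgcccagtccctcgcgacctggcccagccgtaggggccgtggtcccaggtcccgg
Epha2, chr4:141300971-141301270, plus strand: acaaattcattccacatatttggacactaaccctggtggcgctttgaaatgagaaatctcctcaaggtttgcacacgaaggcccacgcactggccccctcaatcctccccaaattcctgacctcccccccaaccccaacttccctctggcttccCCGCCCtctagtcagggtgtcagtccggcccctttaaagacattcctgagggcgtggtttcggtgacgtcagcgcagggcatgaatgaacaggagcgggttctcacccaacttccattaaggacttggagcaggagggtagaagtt
Epha5, chr5:84417333-84417632, minus strand: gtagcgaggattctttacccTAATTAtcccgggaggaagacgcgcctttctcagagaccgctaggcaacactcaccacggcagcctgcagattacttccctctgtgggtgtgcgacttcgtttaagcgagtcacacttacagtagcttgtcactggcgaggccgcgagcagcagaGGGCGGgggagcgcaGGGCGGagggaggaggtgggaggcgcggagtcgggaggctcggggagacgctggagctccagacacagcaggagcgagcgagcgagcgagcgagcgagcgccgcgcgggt
Epha7, chr4:28812881-28813180, plus strand: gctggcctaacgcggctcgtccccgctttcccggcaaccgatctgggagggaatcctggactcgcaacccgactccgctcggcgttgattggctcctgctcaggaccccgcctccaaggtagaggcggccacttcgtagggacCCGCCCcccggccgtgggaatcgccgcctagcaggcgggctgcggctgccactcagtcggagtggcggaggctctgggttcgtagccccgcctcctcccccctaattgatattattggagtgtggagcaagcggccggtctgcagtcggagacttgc

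Of the 8 genes Epha5 alone had a TAATTA match, whereas 4.53% of 21263 start windows of protein-coding genes hold that motif. TGATNNAT (Pbx-Hox) was found in the start window of no member, against 7.45% of all windows. GGGCGG was found at 7 of the 8 genes, all but Epha3, against 46.2% of all windows, and Epha8 had 6 matches. TAATTA and GGGCGG have no letter in common on either strand and cannot overlap. The share of G and C ran from 54.7% at Epha2 to 84.3% at Epha8, against a median of 56.3% over all windows, and Epha2 alone lay below that median. A match is a string of letters and not a binding site, and a missing match says nothing about a factor.

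To compare strength without the effect of list length, regions with a peak in all 4 libraries were ranked among themselves by −log10 p in each library, from 0 to 100 with 100 the strongest. The 57559 such regions given to a gene make 4 lists of equal length. A region was called higher or lower when both Hoxa5-deficient ranks lay beyond both control ranks and the means were 10 or more percentile points apart. With 2 libraries against 2, an exact two-sided permutation test cannot go below p = 0.333, so no p is given and the calls describe these 4 libraries. Pileups at the strongest summit are given beside the ranks, and each was also divided by its library's background to make a ratio of Hoxa5-deficient over control means. The median of that ratio over all 57559 regions was 1.13 (0.17 on the log2 scale).

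**Figure D1:**
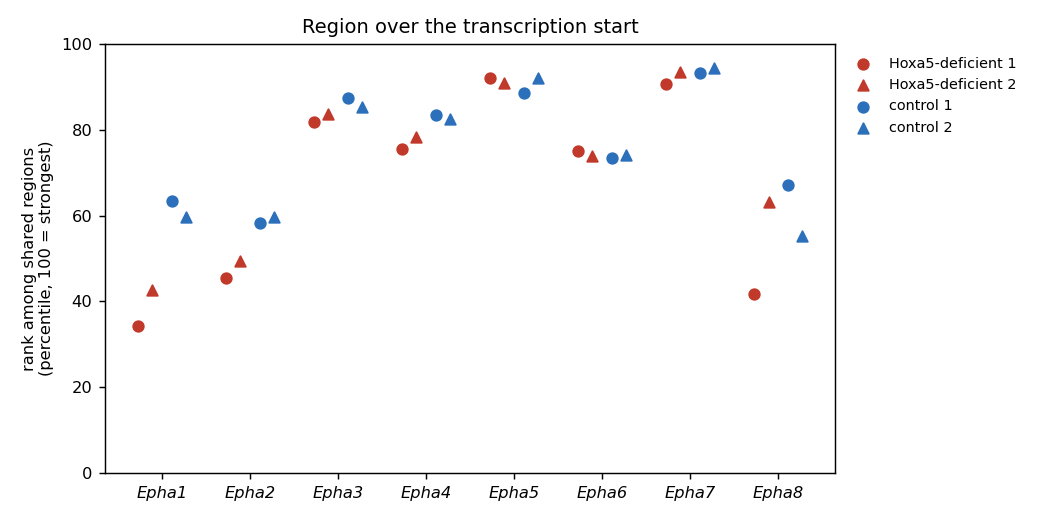
Rank of the region over each EphA start among regions shared by all 4 libraries (vertical axis, percentile, 100 strongest), with Hoxa5-deficient libraries in red and controls in blue (circles library 1, triangles library 2). At Epha1 and Epha2 both red points lie below both blue points and the means differ by more than 10 points, and at Epha5, Epha6 and Epha7 the points lie close together.

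The start regions fell into a strong and a weaker class, and differed by more than 10 points at Epha1 and Epha2. Epha1, the founding member of the Eph family, had start ranks of 34.1 and 42.7 in the Hoxa5-deficient libraries, against 63.5 and 59.7 in the controls (difference −23.2 points; chromosome 6, 42372662 to 42373658, mm10). Its summit pileups were 36 and 61 tags in the Hoxa5-deficient libraries and 75 and 50 tags in the controls, a ratio of 0.677. The ranks do not overlap, while the raw tag counts do, because Hoxa5-deficient library 2 was the deepest and control library 2 the shallowest. Epha2, a receptor best known from epithelia and endothelia, had start ranks of 45.5 and 49.4 in the Hoxa5-deficient libraries, against 58.3 and 59.6 in the controls (difference −11.5; chromosome 4, 141301057 to 141301990). Its pileups were 50 and 70 tags in the Hoxa5-deficient libraries and 67 and 59 in the controls, a ratio of 0.825, so in tags the genotypes overlapped. Across the genome, 4.35% of genes with a shared start region were called lower there and 3.67% higher, so a called start is uncommon in either direction. That background is not matched for rank. Shared regions within 2 kb of a start had median ranks of 86.1 to 86.3 over all genes, above the Epha1 and Epha2 starts.

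The other starts were not called. The Epha7 start was among the strongest sites of every library, with ranks of 90.7 and 93.4 in the Hoxa5-deficient libraries and 93.2 and 94.3 in the controls, from pileups of 391 and 636 tags against 418 and 380. Epha5, whose start region (chromosome 5, 84416929 to 84417843) lies in the body of the shorter overlapping gene Gm42163 and so is not among the 268, ranked at 92.0 and 90.9 in the Hoxa5-deficient libraries and 88.6 and 92.0 in the controls. The Epha6 start ranked within a band of 2 points, from 75.1 and 74.0 in the Hoxa5-deficient libraries to 73.4 and 74.2 in the controls. At Epha3 the ranks were 81.9 and 83.6 in the Hoxa5-deficient libraries and 87.4 and 85.4 in the controls, and at Epha4 they were 75.6 and 78.3, against 83.5 and 82.5. At both genes the genotypes do not overlap, but the differences of −3.66 points at Epha3 and −6.06 points at Epha4 are smaller than the 10 needed. The Epha8 start ranked at 41.8 and 63.1 in the Hoxa5-deficient libraries and 67.1 and 55.3 in the controls, which overlap.

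**Figure D2:**
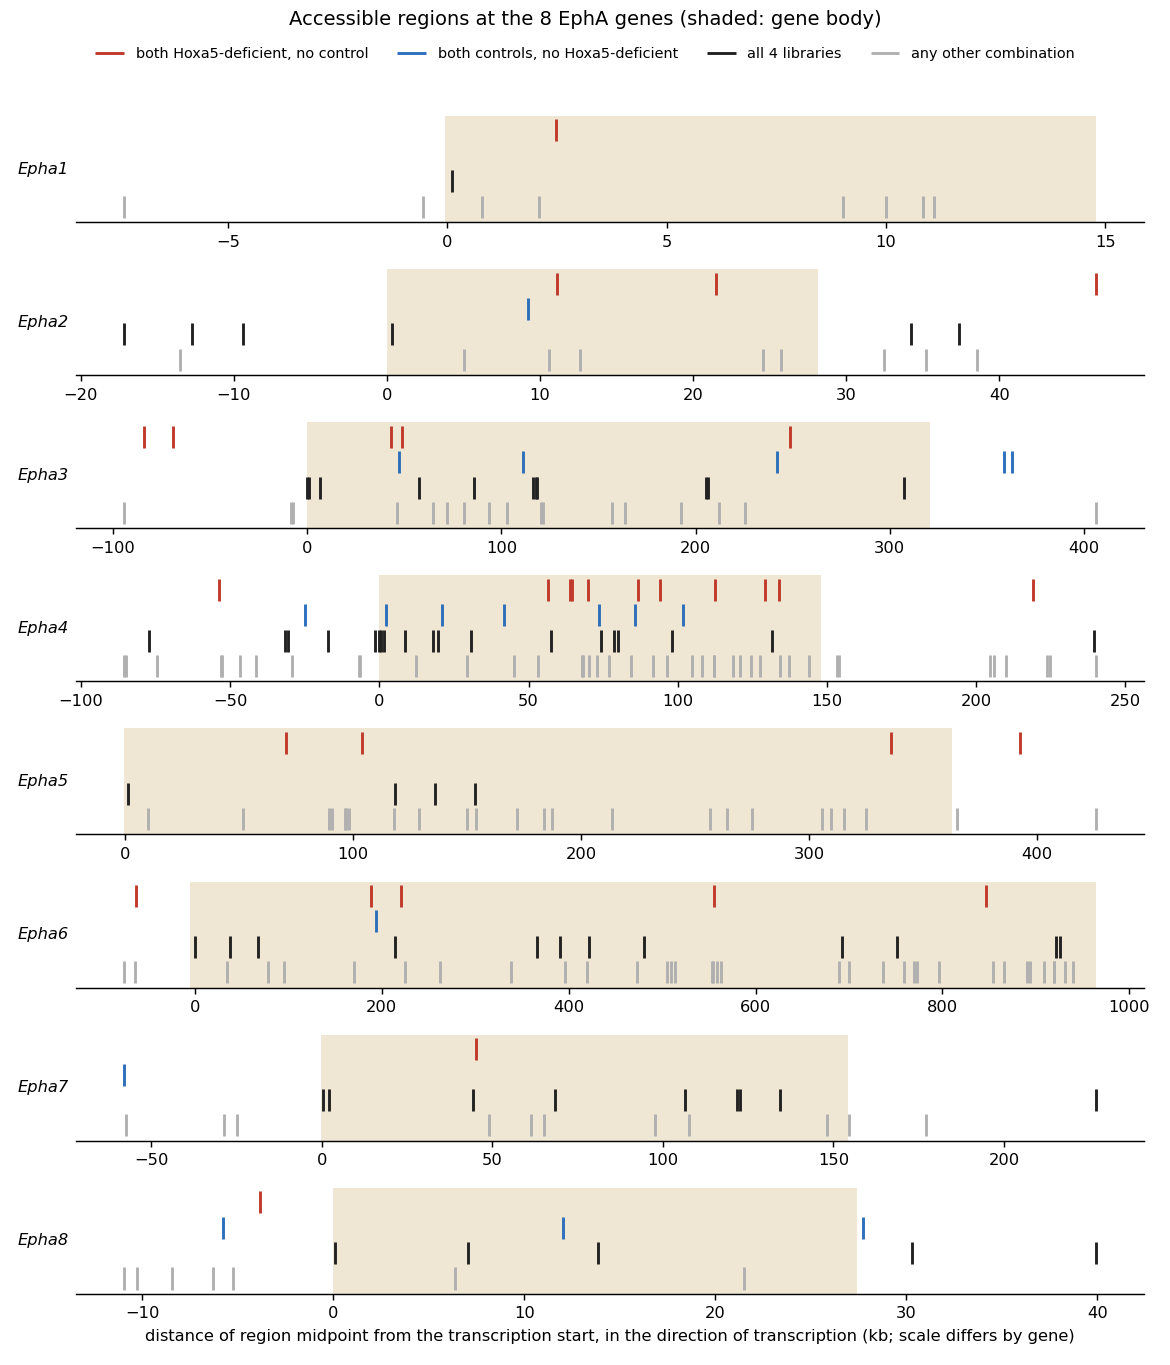
Midpoint of each of the 268 EphA regions by distance from the gene's start along the direction of transcription (horizontal axis, kb, its own scale per gene), with the gene body shaded. Black ticks are regions in all 4 libraries, red ticks regions of both Hoxa5-deficient libraries and no control, blue ticks the reverse, and grey ticks all other combinations. Epha4 holds 78 of the ticks, and in its body the 9 red ones lie beyond 56 kb from the start.

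The 8 genes differ widely in how many regions they hold. Epha4 had 78 regions, Epha6 53, Epha3 38, Epha5 32, Epha7 22, Epha2 19, Epha8 16 and Epha1 10. Of the 268, 197 (73.5%) had their midpoint inside the gene. The bodies span from 14.8 kb at Epha1 to 969 kb at Epha6, so counts per length order them differently. Per 100 kb of body there were 54.0 regions at Epha1, 33.8 at Epha4, 32.0 at Epha2 and 21.9 at Epha8, then 9.71 at Epha7, 9.36 at Epha3, 7.99 at Epha5 and 5.16 at Epha6. The median over the 2429 protein-coding bodies of 100 kb or more was 9.55, so among the 5 EphA genes of that size Epha4 was the dense exception. Just inside the 100 kb limit lay an Epha3 region 94.2 kb away, with a peak in Hoxa5-deficient library 2 (percentile 15.9) and control library 1 (percentile 21.8). Just outside lay a region 100.04 kb from Epha4 that was found in all 4 libraries, with within-list percentiles of 49.5 and 54.5 in the Hoxa5-deficient libraries and 41.8 and 44.2 in the controls.

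Each library carried between 139 and 165 EphA regions. The Hoxa5-deficient libraries had 160 and 165 and the controls 139 and 149, which is 0.158% and 0.148% of their gene-assigned regions in the Hoxa5-deficient libraries and 0.146% and 0.163% in the controls, with no separation of the genotypes. The largest separation was at Epha5. This neuronal receptor involved in topographic mapping had 20 and 17 regions in the Hoxa5-deficient libraries and 9 and 10 in the controls. Of its 32 regions 19 were in 1 library, 8 of them only in Hoxa5-deficient library 1 and 6 only in Hoxa5-deficient library 2. Only 4 were in both Hoxa5-deficient libraries and no control. Epha2 had 12 and 15 against 9 and 9. Epha8 leaned the other way, with 7 and 10 regions in the Hoxa5-deficient libraries and 11 and 12 in the controls. For Epha1, Epha3, Epha4 and Epha7 the counts of the genotypes overlapped, at 5 and 7 against 6 and 4, 24 and 23 against 24 and 21, 45 and 48 against 38 and 49, and 16 and 14 against 12 and 17. Epha6 had 31 in each Hoxa5-deficient library, against 30 and 27 in the controls.

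By the counts in the 4 libraries, the genes most like the 3 members with most regions were Zbtb20, Adamtsl1 and Thsd4 for Epha4, Plcb4, Fat4 and Map2k5 for Epha6, and Usp6nl, Fggy and Tmem178 for Epha3. Likeness was the Euclidean distance on log2(regions + 1) over 4 libraries among 17857 other genes. It ran from 0.0566 for Usp6nl, with 24 and 23 regions in the Hoxa5-deficient libraries and 25 and 21 in the controls, to 0.168 for Thsd4.

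**Figure D3:**
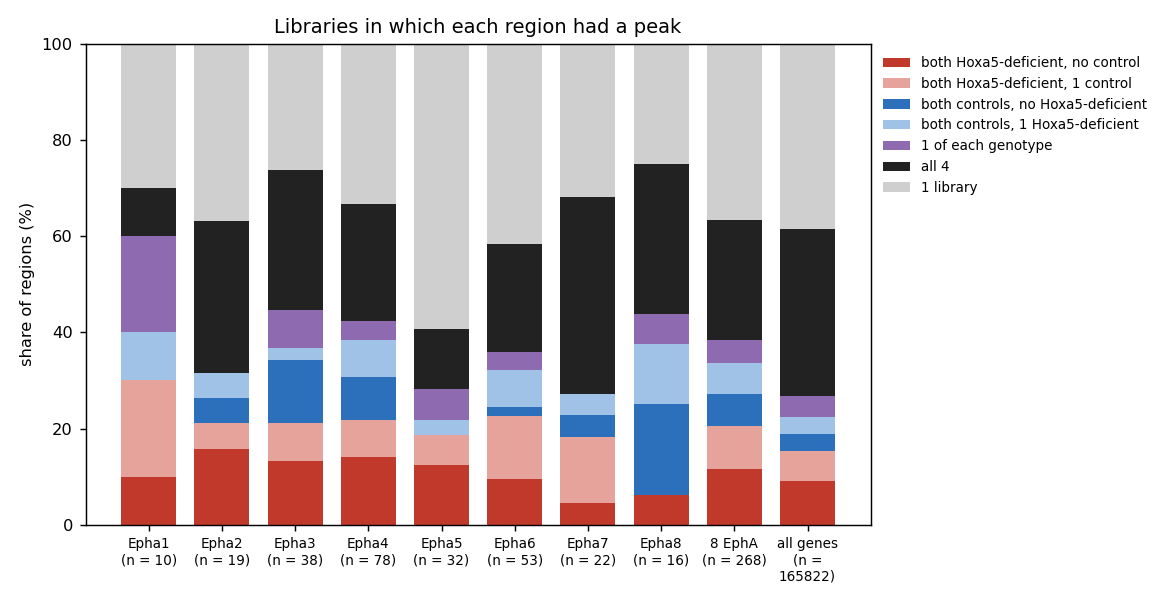
Share of regions (vertical axis, percent) by the libraries that had a peak there, for each EphA gene, the 8 together and all genes. Regions of both controls and no Hoxa5-deficient library (dark blue) make up 6.72% at the 8 genes and 3.50% over all genes, and are largest as a share at Epha8.

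Regions of a single genotype were present at most EphA genes. Regions of both Hoxa5-deficient libraries and no control (mutant-only) numbered 31 of 268, or 11.6%, beside 9.16% of all gene-assigned regions. Regions of both controls and no Hoxa5-deficient library (control-only) numbered 18, or 6.72%, beside 3.50%. Regions found in a single library on either side (crossed) numbered 13, or 4.85%, beside 4.48%, and 67 (25.0%) were in all 4, beside 34.7%. Mutant-only regions were thus 1.72 times as many as control-only ones at the EphA genes and 2.61 times as many over all genes. Inside bodies of 100 kb or more the background was 11.8% mutant-only and 3.53% control-only, and the 5 EphA genes of that size held 20 and 10 of 174 regions, or 11.5% and 5.75%. Regions in all 4 libraries made up 27.0% of those 174, beside 28.9% inside all such bodies. The mutant-only share therefore lay at the background of long genes, and the control-only share lay above both backgrounds; neither difference was tested. A further 24 regions (8.96%, beside 6.23%) lacked a peak in 1 control, 17 (6.34%, beside 3.43%) lacked a peak in 1 Hoxa5-deficient library, and 98 (36.6%, beside 38.5%) were in 1 library. With the lists limited to equal numbers of intervals, 20 EphA regions were mutant-only and 24 control-only (8.06% and 9.68%), so the order of these classes turned. Over all regions it did not, with 7.54% mutant-only and 4.95% control-only under that setting.

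Of the 18 control-only regions 15 lay at Epha4 (7), Epha3 (5) and Epha8 (3), with 1 each at Epha2, Epha6 and Epha7 and 0 at Epha1 and Epha5. The strongest lay inside Epha4, which directs the dorsal turn of limb motor axons, 2.07 kb past its start (chromosome 1, 77512882 to 77513161). It stood on a local background of 30.45 and 22.14 tags in the controls, beside genome backgrounds of 5.43 and 4.39 tags. It had summit pileups of 97 and 70 tags in the controls (fold enrichment 3.12 and 3.07), at within-list percentiles of 68.3 and 64.3. It had no peak in either Hoxa5-deficient library. The shared region next to it, 1.46 kb past the start (77513336 to 77513925), had 70 and 78 tags in the Hoxa5-deficient libraries and 77 and 47 in the controls, and was not called. The other 6 at Epha4 had from 10 to 28 tags. They lay inside the gene at 21.0, 41.8, 73.5, 85.7 and 102 kb past the start and 25.0 kb upstream of it.

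Control-only regions of the other genes were weak except at Epha6 and Epha3. The Epha6 region, 194 kb into this large neuronal receptor gene (chromosome 16, 60411320 to 60411600), had 23 and 31 tags at percentiles of 46.8 and 65.1. At Epha3, a receptor of axial motor axons that with EphA4 keeps them apart from sensory axons, the region beyond the far end of the gene (chromosome 16, 63500846 to 63501384) had 28 and 19 tags. The remaining 4 at Epha3 had from 13 to 22 tags, 3 of them inside the gene at 47.3, 111 and 242 kb and 1 outside it at 359 kb. At Epha8, a receptor known from midbrain axon guidance, the 3 had from 15 to 27 tags, 5.75 kb upstream of the gene, 12.0 kb past the start within it, and 27.7 kb past the start, just beyond its far end. The Epha2 region had 16 and 15 tags and the Epha7 region 31 and 12 tags.

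Mutant-only regions were spread over all 8 genes, and 11 of 31 lay at Epha4. In the Epha4 body they numbered 9, all from 56.6 to 134 kb past the start, while the 6 control-only regions of the body lay from 2.07 to 102 kb. The strongest of Epha4 by mean percentile had 23 and 27 tags (chromosome 1, 77385479 to 77385969). Over all members the strongest lay in Epha5, 336 kb past the start (chromosome 5, 84081360 to 84081668), with 39 and 35 tags at percentiles of 69.0 and 58.6. An Epha6 region 57.3 kb upstream of the gene (chromosome 16, 60667774 to 60668566) followed, with 26 and 29 tags at percentiles of 53.9 and 51.2. At Epha7, a receptor used in neural tube closure and axon mapping, the 1 mutant-only region (chromosome 4, 28858245 to 28858722) had 21 and 28 tags and lay beside a shared region that was called higher.

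The next Epha6 regions had 26 and 21 and 31 and 20 tags, and the next Epha5 region had 24 and 20. At Epha2 the 3 mutant-only regions had from 14 to 30 tags, at Epha3 the 5 had from 12 to 21, and those of Epha1 and Epha8 had 20 and 20 and 25 and 29. Apart from the Epha4 region with 97 and 70 tags, no mutant-only or control-only region passed 39 tags in any library. These classes leave out the 24 regions that lacked a peak in 1 control and the 17 that lacked a peak in 1 Hoxa5-deficient library. Of the 24, an Epha6 region (chromosome 16, 60100303 to 60101001) had 119 and 176 tags in the Hoxa5-deficient libraries. It had 13 tags in control library 2 and no peak in control library 1.

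**Figure D4:**
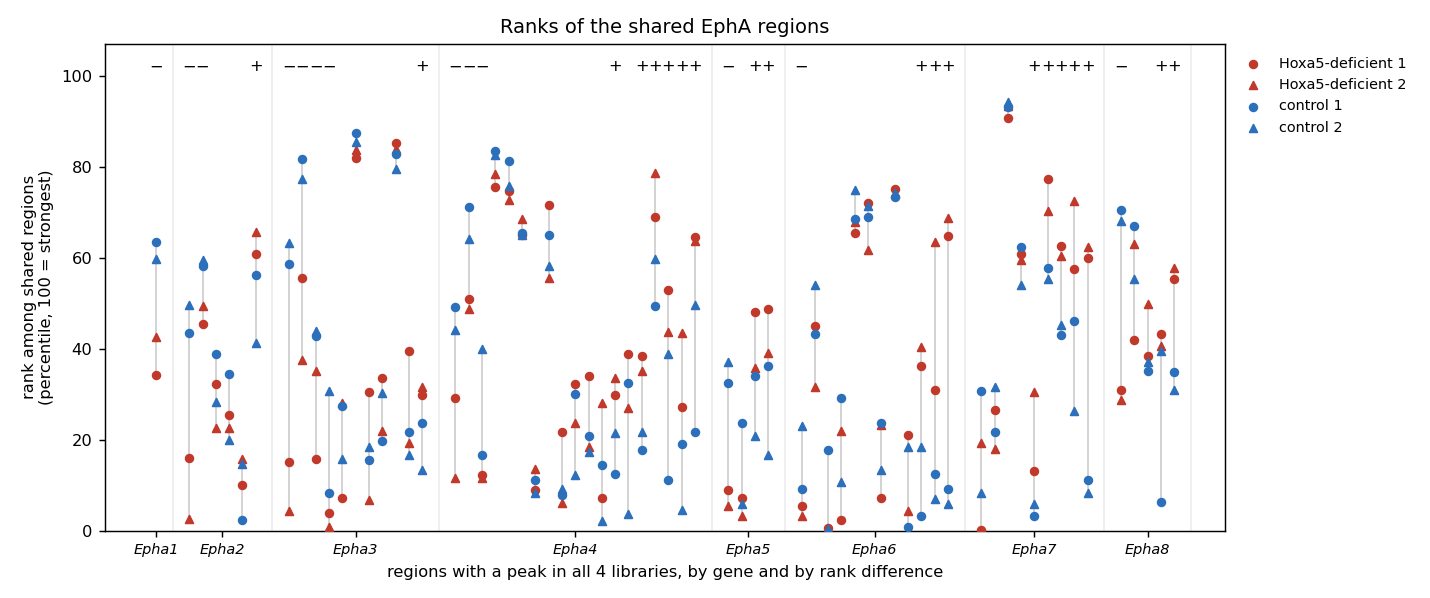
Rank of each of the 67 EphA regions found in all 4 libraries (vertical axis, percentile among shared regions, 100 strongest), grouped by gene and ordered within it by rank difference, with Hoxa5-deficient libraries in red and controls in blue (circles library 1, triangles library 2). A plus or minus at the top marks the 20 regions called higher and the 13 called lower in the Hoxa5-deficient libraries.

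Among the 67 regions found in all 4 libraries, 20 (29.9%) were called higher in the Hoxa5-deficient libraries and 13 (19.4%) lower. Over all shared regions given to a gene 18.4% were called higher and 19.7% lower. Inside bodies of 100 kb or more, where the 5 large EphA genes had 14 of 47 (29.8%) higher and 9 (19.1%) lower, the shares over all genes were 27.2% and 19.2%. The EphA shares therefore lay near those of long genes. The median rank difference was 1.63 points over the 67 and −0.48 over all. In size it was 11.5 points at the EphA regions and 7.59 over all. Inside bodies of 100 kb or more it was 11.9 at the large EphA genes and 10.2 over all genes. Libraries of the same genotype differed by a median of 8.47 points between the Hoxa5-deficient libraries and 7.06 between the controls at the EphA regions, and libraries of different genotypes by 9.43 to 13.9. EphA regions were weaker than the typical shared region, with median ranks of 36.1 and 35.2 in the Hoxa5-deficient libraries and 32.4 and 30.9 in the controls. Shared regions inside all bodies of 100 kb or more were also weaker, at 41.5 and 41.8 in the Hoxa5-deficient libraries and 37.4 and 38.2 in the controls. Those inside the 5 large EphA genes stood at 33.6 and 31.6, against 29.1 and 23.1 in the controls.

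The genes differed in direction. Epha7 had 5 of 9 shared regions called higher and 0 lower, with a median difference of 17.2 points. Epha4 had 6 higher and 3 lower of 19, and Epha6 had 3 higher and 1 lower of 12. Epha3 had 1 higher and 4 lower of 11, with a median of −3.66. Epha5 and Epha8 each had 2 higher and 1 lower, of 4 and 5, Epha2 had 1 and 2 of 6, and the 1 shared region of Epha1 was the start described above. These per-gene counts are small and were not tested.

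At Epha7 the 5 higher regions lay away from the start, where both shared regions kept close ranks. The largest difference was at a region 72.6 kb past the far end of the gene (chromosome 4, 29039816 to 29040372), with ranks of 60.0 and 62.4 in the Hoxa5-deficient libraries, against 11.3 and 8.23 in the controls (difference 51.5 points). Its pileups were 57 and 84 tags in the Hoxa5-deficient libraries and 19 and 15 tags in the controls, a ratio of 3.61. Both Hoxa5-deficient libraries ranked high and both controls low, with ranks within 4 points of each other inside a genotype; the region is named for its large difference, so this is a description.

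Inside Epha7 an adjoining pair of regions lay 122 and 123 kb past the start. The stronger (chromosome 4, 28934580 to 28935210) had 133 and 143 tags in the Hoxa5-deficient libraries, against 58 and 44 in the controls (ranks 77.3 and 70.2 against 57.7 and 55.3; ratio 2.39). Its neighbour (28935409 to 28936095) had 75 and 152 tags, against 43 and 23 (difference 28.8 points; ratio 3.02). The regions 68.4 and 44.4 kb past the start had 70 and 88 tags against 40 and 35, and 20 and 38 against 15 and 14. In all 5, both Hoxa5-deficient pileups exceeded both control pileups in raw tags.

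**Figure D5:**
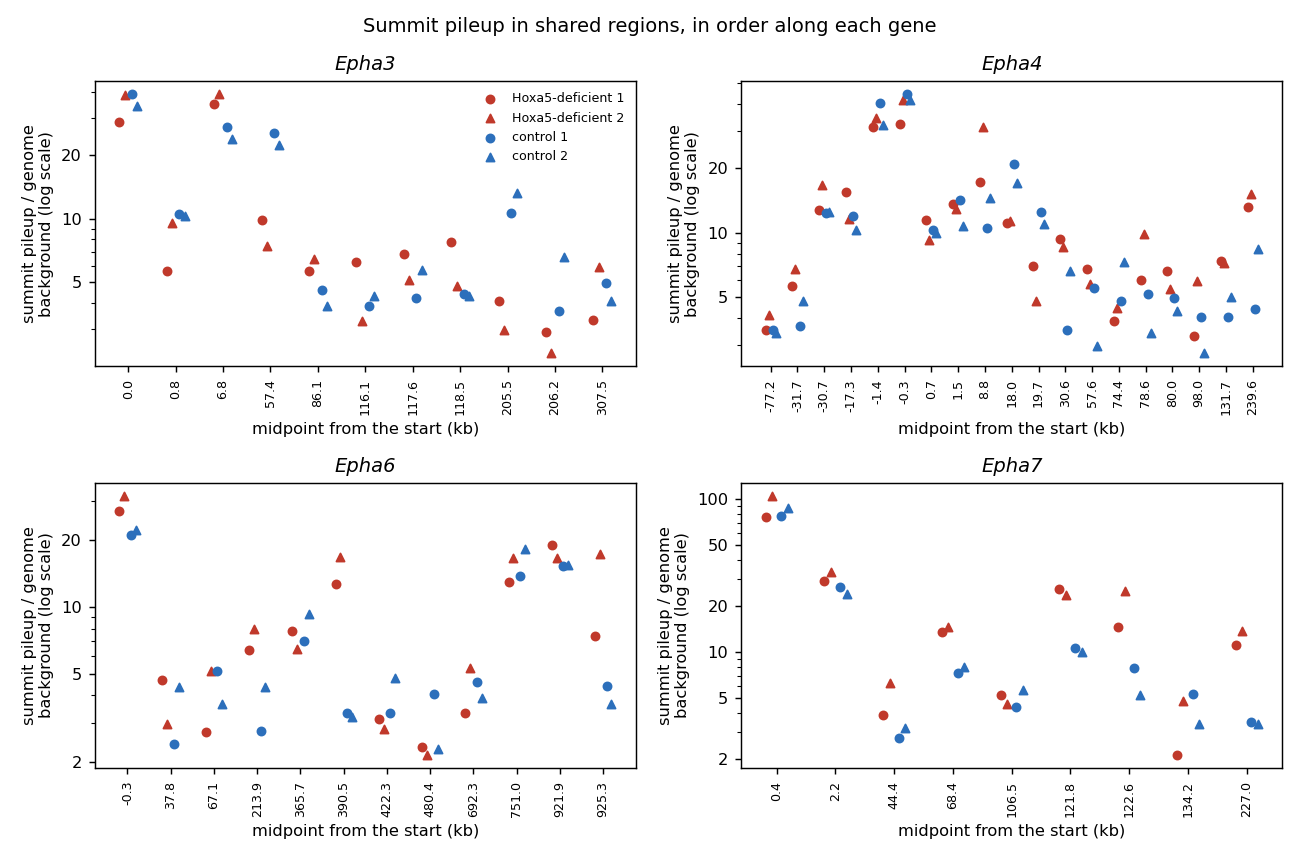
Summit pileup divided by the library's genome background (vertical axis, log scale) in the shared regions of Epha3, Epha4, Epha6 and Epha7, in order of their distance from the start (horizontal axis, kb, evenly spaced), with Hoxa5-deficient libraries in red and controls in blue (circles library 1, triangles library 2). Both red points stand above both blue points at 6 regions of Epha7, by the least at the region next to the start region, which was not called. In Epha6 they stand farthest above at 390.5 kb, and in Epha3 they lie farthest below at 57.4 and 205.5 kb.

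Among the EphA regions found in all 4 libraries, the largest rank difference lay in Epha6. This region, 390.5 kb past the start (chromosome 16, 60214645 to 60215410), ranked at 64.8 and 68.8 in the Hoxa5-deficient libraries, against 9.09 and 5.87 in the controls (difference 59.3 points). Its pileups were 65 and 102 tags in the Hoxa5-deficient libraries and 18 and 14 in the controls, a ratio of 4.53. A second Epha6 region near the far end of the gene (59679693 to 59680737) had 38 and 105 tags, against 24 and 16 (difference 37.5; ratio 3.07), with the Hoxa5-deficient libraries themselves far apart in rank, at 31.0 and 63.4. The region 214 kb past the start (60390955 to 60392360) had 33 and 48 tags, against 15 and 19 (difference 27.4). Beside them stood strong regions that hardly differed. The region 922 kb past the start had 98 and 101 tags in the Hoxa5-deficient libraries and 83 and 68 in the controls (difference −3.36), and the region at 751 kb had 67 and 101 against 75 and 80 (difference −5.06).

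Epha3 held the largest difference in the other direction. A region in the gene 205.5 kb past the start (chromosome 16, 63658253 to 63659156) ranked at 15.2 and 4.24 in the Hoxa5-deficient libraries, against 58.7 and 63.2 in the controls (difference −51.3 points). Its pileups were 21 and 18 tags in the Hoxa5-deficient libraries and 58 and 58 in the controls, a ratio of 0.295. The region next to it (63657804 to 63658105) had 15 and 14 tags, against 20 and 29 (difference −17.2). Another, 57.4 kb past the start (63806228 to 63807258), had 51 and 45 tags, against 138 and 98 (ranks 55.6 and 37.6 against 81.6 and 77.2; difference −32.8; ratio 0.363). In these 3 regions all raw pileups of the Hoxa5-deficient libraries lay below all those of the controls, although Hoxa5-deficient library 2 was the deepest. The fourth lower region lay 0.811 kb past the start, with 29 and 58 tags against 57 and 45, which overlap in raw tags. The strong region 6.84 kb past the start (63856761 to 63857910) had 179 and 236 tags against 147 and 105, and its ranks of 85.2 and 83.9 against 82.8 and 79.4 were not called.

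Epha4 held called regions in both directions, some of them close together. Between 18 and 20 kb past the start an adjoining pair ranked lower in the Hoxa5-deficient libraries. The stronger (chromosome 1, 77496702 to 77497503) had 57 and 69 tags in the Hoxa5-deficient libraries, against 114 and 75 in the controls (difference −17.9; ratio 0.590), and its neighbour (77495025 to 77495791) had 36 and 29, against 68 and 48 (difference −26.2; ratio 0.503). The region 8.75 kb past the start (77505921 to 77506753) ranked higher, at 69.0 and 78.7 in the Hoxa5-deficient libraries and 49.4 and 59.7 in the controls, from 89 and 190 tags against 57 and 64 (ratio 1.94).

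The largest difference at Epha4 was at a region 91.7 kb beyond its far end (77275043 to 77275980), with 68 and 92 tags in the Hoxa5-deficient libraries, against 24 and 37 in the controls (difference 28.4; ratio 2.21). It lies close to the 100 kb limit, so its tie to Epha4 rests on distance alone. Inside the gene the regions 78.6 and 30.6 kb past the start also ranked higher (differences 23.6 and 23.3). They had 31 and 60 tags in the Hoxa5-deficient libraries against 28 and 15 in the controls, and 48 and 52 against 19 and 29. Smaller higher calls stood 132 kb past the start and 31.7 kb upstream of the gene (17.1 and 14.7 points), and a lower one at 74.4 kb (−16.4). The start region and the strong region just upstream (77516039 to 77516894) had from 161 to 254 tags in the Hoxa5-deficient libraries and from 140 to 242 in the controls, and were not called. Nor were the regions 17.3 and 30.7 kb upstream of the gene, with 80 and 70 tags against 65 and 45, and 66 and 101 against 67 and 55.

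At Epha8, Epha2 and Epha5 a few regions stood out. In Epha8 the region 7.05 kb past the start (chromosome 4, 136949270 to 136950255) ranked at 30.9 and 28.7 in the Hoxa5-deficient libraries, against 70.5 and 68.2 in the controls (difference −39.5), with 33 and 39 tags against 89 and 67 (ratio 0.406). The region 30.3 kb past the start, beyond the gene's far end (136925807 to 136927223), was called higher, with 55 and 88 tags against 33 and 25 (difference 23.6; ratio 2.14), as did the region 13.9 kb past the start, with 42 and 55 against 18 and 30. At Epha2 the region 6.04 kb beyond the far end (141335212 to 141335643) had 23 and 18 tags, against 42 and 39 (difference −37.4; ratio 0.448), and the region 12.7 kb upstream of the gene had 66 and 110, against 66 and 36 (difference 14.5). At Epha5 the region 1.01 kb past the start (chromosome 5, 84416009 to 84416729) had 105 and 125 tags, against 76 and 43 (difference 17.5; ratio 1.73), beside the start region that was not called. A weaker Epha5 region at 136 kb (84281307 to 84282079) had 18 and 19 tags, against 30 and 28 (difference −27.5), and the region at 153 kb had 43 and 43, against 31 and 20 (difference 14.6).

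Most called regions lay away from starts, as did 55 of the 67 shared EphA regions. Of 12 shared EphA regions within 2 kb of any protein-coding start, 1 (8.33%) was called higher and 3 (25.0%) lower. Of all shared regions there, 4.47% were higher and 6.41% lower. That background is not matched for rank. The 12 had median ranks of 47.1 and 56.2 in the Hoxa5-deficient libraries and 65.3 and 59.6 in the controls, beside 86.1 to 86.3 over all genes. The median size of difference at the 12 was 6.51 points. Of the 55 farther away 19 (34.5%) were higher and 10 (18.2%) lower, beside 21.8% and 22.9% of all, with a median size of 14.5 points. Over all genes the median size was 2.09 points near starts and 9.78 away from them, so smaller differences near starts were seen genome-wide as well. By pileup over background in place of rank, a call needed a ratio 1.5 or more times above or below the median ratio and no overlap. By that rule 15 of the 67 EphA regions (22.4%) were higher and 13 (19.4%) lower, beside 15.0% and 14.7% of all shared regions. These shares were not set against long genes. Of the 15 and 13 regions, 15 and 12 were also called by rank in the same direction, and 0 were called in opposite directions. Both measures draw on the same −log10 p, so this is not an independent check. Over all 57559 shared regions only 1 was called in opposite directions.

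Over 40 ligands, other Eph receptors and signalling genes, 48 of 1381 regions were control-only (3.48%) and 135 mutant-only (9.78%), near the shares over all genes. Of their 458 shared regions 116 (25.3%) were called higher and 101 (22.1%) lower. Over all genes 18.4% were called higher and 19.7% lower, and inside bodies of 100 kb or more 27.2% and 19.2%. The 5 ephrin-A ligand genes held 3 control-only (2.75%) and 15 mutant-only (13.8%) of 109 regions. Of their 37 shared regions 12 (32.4%) were higher and 9 (24.3%) lower. Most regions came from Efna5, an ephrin-A that repels axons, with 57 and 62 regions in the Hoxa5-deficient libraries and 38 and 39 in the controls. Of its 24 shared regions 11 (45.8%) were higher and 4 (16.7%) lower. The 6 other Eph receptors, Epha10 and the EphB genes, had 13 higher and 21 lower of 70. All 13 higher ones were at Ephb1, where 10 (32.3%) of 31 shared regions were lower. Of the 209 regions of these 6 receptors 9 were control-only (4.31%) and 23 mutant-only. At Ephb2 0 of 25 were higher and 9 (36.0%) lower. The 3 ephrin-B genes had 3 higher (14.3%) and 7 lower (33.3%) of 21. The 26 signalling genes had 88 higher (26.7%) and 64 lower (19.4%) of 330, near the shares inside bodies of 100 kb or more. Of these, Chn1, a Rac regulator downstream of EphA4, had 0 higher and 1 lower of 4. Gfra1, the GDNF co-receptor that acts beside EphA4 in limb motor axons, had 11 higher (39.3%) and 8 lower (28.6%) of 28. None of these differences between gene groups was tested.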

How the data were processed

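ATAC-seq was measured in 2 Hoxa5-deficient and 2 control libraries. Tools listed in the submitters' processing notes are MACS2 2.2.4, Bowtie2 2.3.4.3, FastQC 0.11.9 and SAMtools 1.9, and the build is mm10; parameters and any Tn5 shift of reads are not given in the sources used here. Each library has its own deposited peak list. Per peak the authors gave a score capped at 1000, the summit's fold enrichment (a ratio), its p-value and q-value on the −log10 scale, and base positions in other deposited columns. They were used to rank and filter peaks within a list. The lists end at −log10 p just over 2; q-values were under 0.05 at 90.3% to 92.8% of summits.

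Intervals were merged at 1 bp overlap, and regions were assigned by midpoint to 21887 protein-coding bodies of GRCm38.p6 (RefSeq). Read depth is not stated. Pileup and background were solved from fold and −log10 p (Poisson tail, pseudocount 1); a whole number met the value within 0.001 for 100% of 20000 summits per library and 99.999% of the shared summits. All 8 genes matched the RefSeq tables.

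The members and lists were chosen with earlier results of these data known. Regions named are each start region, every control-only region, the mutant-only regions of highest mean percentile and the shared regions of largest rank difference (up to 3 per gene each). Strong regions beside them and an Epha6 region that lacked a peak in 1 control are also named, some chosen after their values were seen. Alternatives were a −log10 q of 5 or more, equal interval numbers, summit windows of 100 bp on each side, bodies only, 20 points, rank by fold, and each library left out; the pileup call was added after seeing the data. Ranking and pileup code was tested on simulated data. Python 3.11.15, pandas 2.3.3, NumPy 2.4.6 and SciPy 1.17.1 were used.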

Additional observations from a re-analysis of the deposited data

How the results depend on the processing

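The main counts were 31 mutant-only, 18 control-only and 67 regions in all 4 libraries, with 20 shared regions called higher and 13 lower. With −log10 q of 5 or more they were 16, 8, 35, 10 and 7. With equal numbers of intervals per library, 113505 each, mutant-only regions dropped to 20 and control-only regions numbered 24, so their order turned, whereas over all regions 7.54% were mutant-only and 4.95% control-only. With 20 points between means, 9 were higher and 7 lower. Leaving out 1 library in turn, which leaves 1 library on a side, mutant-only regions ranged from 38 to 59 (59 without Hoxa5-deficient library 1, 54 without Hoxa5-deficient library 2, 48 without control library 2), control-only regions from 25 to 42 (42 without control library 1, 41 without control library 2, 28 without Hoxa5-deficient library 1), shared regions from 74 to 84, higher calls from 21 to 27 and lower calls from 16 to 21 (21 without control library 2, 20 without Hoxa5-deficient library 2). All other counts, by summit windows, bodies only, rank by fold and pileup, stayed within 1.5 times. The EphA share lay above that over all genes in 8 of 8 alternatives for control-only regions, 7 of 8 for mutant-only regions, 11 of 11 for higher calls and 9 of 11 for lower calls, and below it in 8 of 8 for regions in all 4 libraries. These tallies use all genes and were not repeated against long genes, whose shares of mutant-only regions and higher calls lay near those of the large EphA genes. The causes of these shifts were not tested. No paired analysis was possible because these results come from no test; libraries 1 and 2 of the genotypes share a number, but the labels tie it to no litter. Apart from 1 Epha4 region, mutant-only and control-only regions had 39 tags or fewer, and the part of depth in them was not tested.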
